A study of Mus musculus with 12 samples.

Results

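The genes described here encode the proteasome and the factors that build or cap it. They were chosen by name, as the protein-coding symbols in the GENCODE M21 annotation that start with Psma, Psmb, Psmc, Psmd, Psme, Psmf or Psmg and a digit, leaving out Psmb8 and Psmb9. The rule gave 48 genes among the 54532 gene IDs of the count table. RNA was sequenced from mouse gastrocnemius, a calf muscle, in 4 groups of 3 libraries. The samples came from wild-type C57BL/6 mice aged 6 to 7 months, and the groups differed in what the muscle received. Needling muscle, titled Acup, received bupivacaine, an anaesthetic that destroys muscle fibres, followed 24 hours later by acupuncture. Injury muscle, titled Inju, received bupivacaine alone. Saline muscle, titled Sham, was injected with saline. Naive muscle, titled WT, received no injection. Whether the 3 samples of a group are 3 animals was not said in the labels, and the p-values below reflect the variation among samples, part of which could be technical. Bulk RNA cannot tell fewer cells of a type from less RNA per cell.

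The proteasome is the protease that degrades proteins tagged with ubiquitin. Its core is a stack of alpha and beta rings in which 3 of the beta subunits cut peptide bonds, and its regulatory cap holds ATPases that unfold substrates beside subunits that recognise and remove ubiquitin. In muscle it is known as a main route by which the proteins of the contractile apparatus are broken down, and in inflamed tissue some core and activator subunits are exchanged for inducible forms.

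The libraries held between 16385233 (saline replicate 1) and 27155738 (injury replicate 3) counts. The 8 markers of mature muscle fibres were abundant in every library, between 61350 and 95600 CPM (counts set to a common library total) summed in needling muscle, 87060 and 116100 in injury muscle, 118300 and 137100 in saline muscle, and 122100 and 166200 in naive muscle. Naive replicate 1 stood apart: its 8 heat shock chaperone genes summed to 17490 CPM, against 2186 to 3085 in the other 11 libraries. These sums and the levels below are CPM scaled by TMM, which sets the bulk of genes equal between libraries. Differences are log2 ratios from edgeR's quasi-likelihood test, called at a Benjamini-Hochberg adjusted p under 0.05 over 15715 tested genes. The scaling matters here. Scaled by total counts instead, the median of all genes was 0.26 (log2) in needling against saline and 0.46 in needling against naive, where TMM put these medians at -0.04 and -0.03. Under TMM a rise or fall is therefore relative to the bulk of genes.

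Of the 48 genes, 46 passed the filter on low counts. Psma8, which encodes an alpha subunit of testis, had 37 counts over the 12 libraries, and Psmb11, the catalytic subunit of the thymus, had 3. Per transcript length, the 14 constitutive core genes had median levels over 12 libraries between 23.1 FPKM (Psma2) and 133 FPKM (Psmb5). The 17 cap genes lay between 20.5 FPKM (Psmd11) and 107 FPKM (Psmc5). Psmb10, an inducible core subunit, was lower at 8.34 FPKM, and the 7 assembly factors ran between 1.31 FPKM (Psmg3) and 24.9 FPKM (Psmg2). Psmc3ip, which matches the rule by name but encodes a partner of meiotic recombination and no subunit, was at 1.35 FPKM.

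**Figure D1:**
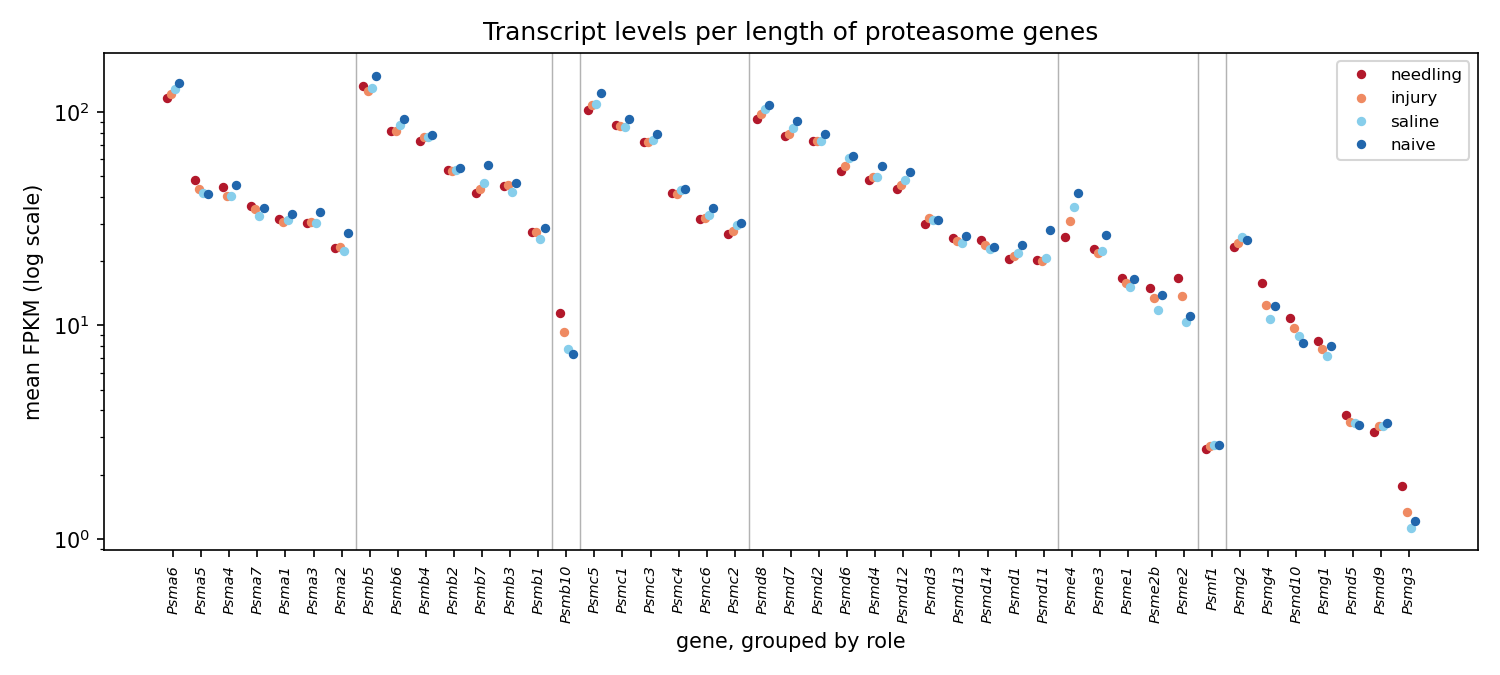
Mean FPKM of the 45 tested subunit, activator, inhibitor and assembly genes (log axis), with 1 point each for needling, injury, saline and naive muscle (n = 3 each) and vertical lines between roles. Core and cap genes lay at 20.0 FPKM or above in each group mean, while Psmb10, Psmf1 and most assembly factors lay lower.

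The upstream sequences of 4 genes are shown because they belong to the catalytic genes Psmb5 and Psmb6, which did not pass in needling against saline, and to Psmb10 and Psme4, which did. They come from RefSeq's promoter table (GRCm38.p6), 5′ to 3′ on the gene's strand, and end at the start of the GENCODE gene or, for Psmb6, a few bases before it. Capitals mark TGACNNNGC, the core of the antioxidant response element bound by NFE2L1 and NFE2L2. Of these factors, NFE2L1 is known to raise proteasome genes when the protease is impaired.
Psmb5 (chr14:54618023-54618245, minus strand): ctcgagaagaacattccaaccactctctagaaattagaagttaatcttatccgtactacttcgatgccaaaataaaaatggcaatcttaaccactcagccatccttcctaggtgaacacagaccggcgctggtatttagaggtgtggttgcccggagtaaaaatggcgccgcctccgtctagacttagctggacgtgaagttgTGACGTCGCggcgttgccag
Psmb6 (chr11:70525107-70525356, plus strand): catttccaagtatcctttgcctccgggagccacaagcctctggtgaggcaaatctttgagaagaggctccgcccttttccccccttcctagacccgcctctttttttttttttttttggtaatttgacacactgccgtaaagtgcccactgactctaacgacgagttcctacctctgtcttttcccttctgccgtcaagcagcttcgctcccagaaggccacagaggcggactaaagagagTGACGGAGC
Psmb10 (chr8:105938445-105938642, minus strand): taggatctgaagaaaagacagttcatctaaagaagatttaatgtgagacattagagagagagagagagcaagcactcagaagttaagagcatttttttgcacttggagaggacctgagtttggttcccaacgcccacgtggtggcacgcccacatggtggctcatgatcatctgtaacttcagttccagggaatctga
Psme4 (chr11:30771525-30771725, plus strand): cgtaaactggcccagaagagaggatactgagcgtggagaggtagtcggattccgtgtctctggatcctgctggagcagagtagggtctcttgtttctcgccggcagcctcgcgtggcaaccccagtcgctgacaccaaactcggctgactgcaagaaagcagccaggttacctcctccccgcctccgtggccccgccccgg

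Those letters, on either strand within 250 bases before the RefSeq start, were in 5 of the 40 members matched in the table (Psmb5, Psmb6, Psmc6, Psmd9 and Psmd12), or 12.5%, against 11.5% of all 27025 genes there. CCAAT, the box bound by NF-Y, was in 14 of the 40 (35.0%), against 37.5% of all genes. Both shares were near those of genes at large. The upstream runs of Psmb10 and Psme4 held no TGACNNNGC, which says only that these letters are not in the window. Both transcription factor genes were measured. Nfe2l2 averaged 55.2 ± 5.65 CPM in needling muscle and 40.7 ± 2.75 CPM in naive muscle (SD, n = 3 each), which is 0.44 ± 0.13 on the log2 scale (SE; adjusted p = 0.0135 by edgeR). Nfe2l1 averaged 702 ± 28.3 CPM in needling muscle and 970.0 ± 174 CPM in naive muscle (SD, n = 3 each), a difference of -0.47 ± 0.14 (SE, edgeR adjusted p = 0.0151) that was 0.03 with total-count scaling. Nfe2l2 differed by 0.92 with total-count scaling (edgeR adjusted p = 0.000188). Without naive replicate 2 neither passed (adjusted p = 0.0548 for Nfe2l2 and 0.0831 for Nfe2l1), nor did Nfe2l1 without needling replicate 1 (0.0568). In needling against saline, with median-ratio size factors in place of TMM, neither passed (0.33 and -0.17, edgeR adjusted p = 0.0678 and 0.368). Total-count scaling gave 0.62 for Nfe2l2 and 0.12 for Nfe2l1 there (edgeR adjusted p = 0.00572 and 0.524).

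The 31 constitutive core and cap genes varied little beside the other genes of the muscle. In needling against saline, 29.6% of all tested genes passed the test, while none of the 31 did. An unadjusted p under 0.05 was found for 1 of them (Psmd6), beside 6502 of the 15715 genes. Their log2 differences ran between -0.23 (Psmd6) and 0.19 (Psma5), with a median of -0.05. For each of the 31 the 95% interval lay within 1.5-fold in either direction, a margin chosen after the values were seen, against 51.0% of the tested genes that averaged at least 10 CPM. The median standard error was 0.095 for the 31 and 0.13 for that set. No set matched to the 31 for level was used, here or below. With total-count scaling the 31 estimates were all higher, with a median of 0.25 against 0.26 for all genes, and 8 passed, beside 29.6% of all genes called higher. A statement that these transcripts held level is thus one relative to other genes.

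**Figure D2:**
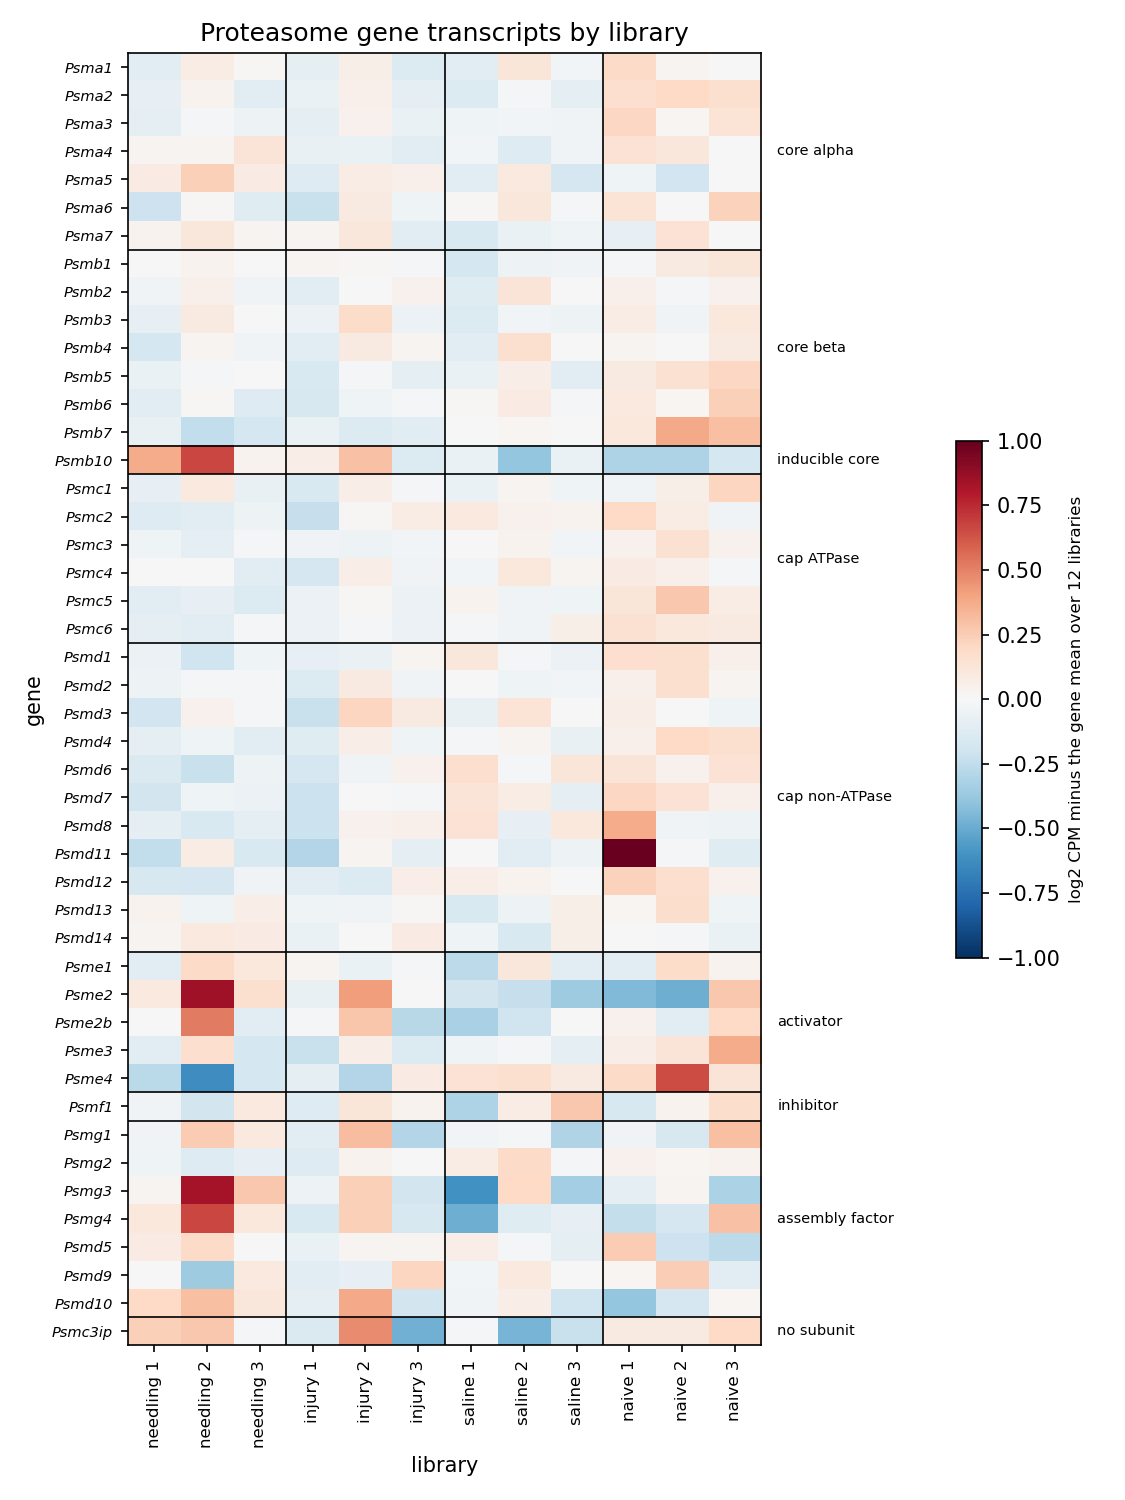
Log2 CPM of each tested gene minus its mean over the 12 libraries, colours cut at 1 either way, for needling, injury, saline and naive libraries from left to right and roles from top to bottom. Core and cap rows are pale apart from Psmd11 in naive replicate 1, and the naive columns are slightly redder under this TMM scaling, while Psmb10, Psme2 and Psme4 show stronger colours.

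Of the 3 catalytic beta genes of the constitutive core, Psmb5 and Psmb6 overlapped between needling and saline muscle, while Psmb7, described further on with the naive comparisons, was lower in all needling libraries than in all saline ones without passing (-0.17, edgeR adjusted p = 0.200). Psmb5 encodes the subunit with chymotrypsin-like activity. It was at 115, 120 and 121 CPM in needling muscle, 109, 119 and 113 CPM in injury muscle, 115, 126 and 112 CPM in saline muscle, and 128, 134 and 139 CPM in naive muscle. Needling, injury and saline libraries overlapped, and the naive ones were higher than all of them. The difference in needling against saline was 0.01 ± 0.09 (SE, adjusted p = 0.942 by edgeR), with an interval between -0.18 and 0.20.

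Psmb6 encodes the caspase-like subunit. It was at 149, 162 and 147 CPM in needling muscle, 144, 156 and 159 CPM in injury muscle, 162, 170 and 159 CPM in saline muscle, and 172, 163 and 190 CPM in naive muscle. Needling and saline libraries overlapped, with a difference of -0.10 ± 0.10 (SE, edgeR adjusted p = 0.446; interval -0.31 to 0.11).

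In the cap, Psmd4 encodes a receptor for ubiquitin chains and Psmd14 the enzyme that cuts them off. Psmd4 was at 135, 139 and 133 CPM in needling muscle, 132, 150 and 139 CPM in injury muscle, 141, 146 and 136 CPM in saline muscle, and 148, 164 and 160 CPM in naive muscle. Psmd14 was at 68.6, 72.1 and 71.3 CPM in needling muscle, 64.3, 67.2 and 71.0 CPM in injury muscle, 65.2, 60.6 and 70.0 CPM in saline muscle, and 67.0, 66.2 and 64.2 CPM in naive muscle. In both genes needling and saline libraries overlapped, and the differences were -0.06 ± 0.09 and 0.11 ± 0.09 (SE; edgeR adjusted p = 0.669 and 0.338). By role, the median difference in needling against saline was 0.03 for the 7 alpha genes, with Psma6 lowest at -0.14 and Psma5 highest at 0.19. It was -0.01 for the 7 beta genes, between -0.17 for Psmb7 and 0.10 for Psmb1. It was -0.07 for the 6 cap ATPases, between -0.16 for Psmc2 and 0.01 for Psmc1, and -0.08 for the 11 other cap genes, between Psmd6 at -0.23 and Psmd14 at 0.11.

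Over the 12 libraries the standard deviation of log2 CPM had a median of 0.10 across the 31 genes. It ran between 0.06 for Psmc3, an ATPase of the cap, and 0.33 for Psmd11, a scaffold subunit. The median was 0.22 across tested genes of at least 10 CPM, which were not matched to the 31 for level. Psmb10 (0.31) varied less than Psmd11, and Psme2 (0.39) varied more. Across all tested genes the median was 0.315.

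Among the 46 genes tested, 2 passed in needling against saline, beside 29.6% of all genes. Psmb10 rose, beside 18.5% of all genes, and Psme4 fell, beside 11.0%. The groups did not overlap for 7 genes on the higher side and 8 on the lower side, beside 48.3% of all genes in either direction. Needling replicate 2 was the highest of the 12 libraries for Psmb10 and the lowest for Psme4, and without it none of the 46 passed in this comparison. The share of all genes called in that fit is not given, so the loss cannot be read as particular to these genes.

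Psmb10 (chr8:105935735-105938444, minus strand, mm10) encodes the inducible trypsin-like subunit that takes the place of the Psmb7 product in the immunoproteasome. It was at 19.4, 23.9 and 15.4 CPM in needling muscle, 15.7, 18.4 and 13.7 CPM in injury muscle, 14.4, 11.5 and 14.3 CPM in saline muscle, and 12.1, 12.2 and 13.3 CPM in naive muscle. All 3 needling libraries were above all 6 saline and naive ones, and injury libraries overlapped needling and saline ones. The gene rose 1.46-fold in needling against saline (log2 0.55 ± 0.16, SE; edgeR adjusted p = 0.0250; interval 0.19 to 0.90) and 1.57-fold in needling against naive (0.65 ± 0.16; edgeR adjusted p = 0.00686). In needling against saline it missed the threshold without needling replicate 2 (0.38, edgeR adjusted p = 0.130), without saline replicate 2 (0.45, 0.103) and without needling replicate 1 (0.55, 0.0547). Total-count scaling gave 0.86 (edgeR adjusted p = 0.00842).

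Markers of macrophages and monocytes were, like Psmb10, highest on average in needling muscle. So was every other marker list of this paragraph: lymphocytes, neutrophils, fibroblasts, cell division, and satellite cells and myoblasts. The 12 macrophage and monocyte genes summed to between 1856 and 2602 CPM in needling muscle, 800.2 and 1302 CPM in injury muscle, 211 and 473 CPM in saline muscle, and 104 and 205 CPM in naive muscle, and 12 of 12 rose in needling against saline. In saline replicates 1, 2 and 3 these sums were 211, 403 and 473 CPM, and Psmb10 was at 14.4, 11.5 and 14.3 CPM. Markers of T, B and NK lymphocytes, 10 genes of which 2 passed the filter, summed to between 1.90 and 3.12 CPM in needling muscle and 1.48 and 2.13 CPM in saline muscle. Neutrophil markers, 7 genes of which 4 passed the filter and 2 rose, summed to between 8.53 and 11.7 CPM in needling muscle and 0.834 and 1.52 CPM in saline muscle. Naive replicate 1 was inside the needling range, at 9.69 CPM. Fibroblast markers, of which 3 of 8 rose, summed to between 2509 and 3332 CPM in needling muscle and 1190 and 1486 CPM in saline muscle. The 8 markers of cell division, all of which rose, summed to between 115 and 161 CPM in needling muscle and 2.95 and 16.6 CPM in saline muscle. In both lists injury libraries lay between needling and saline ones, and naive ones lay lowest. Satellite cell and myoblast markers, of which 5 of 8 rose, summed to between 235 and 344 CPM in needling muscle and 48.7 and 87.3 CPM in saline muscle. Their sum was 228 CPM in naive replicate 1, against 49.9 and 44.5 CPM in naive replicates 2 and 3. The part of any of these cells in the Psmb10 difference was not tested.

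Psme4 (chr11:30771726-30880361, plus strand) encodes the nuclear activator PA200, known for opening the core to histones. It was at 230, 180.0 and 245 CPM in needling muscle, 260, 226 and 294 CPM in injury muscle, 306, 309 and 294 CPM in saline muscle, and 317, 436 and 303 CPM in naive muscle. All needling libraries were below all saline and naive ones, and injury libraries lay between, overlapping the needling ones. In needling against saline the level fell to 0.719 of that in saline muscle (log2 -0.48 ± 0.16, SE; edgeR adjusted p = 0.0399; interval -0.82 to -0.13), and in needling against naive to 0.62 of the naive level (-0.69 ± 0.16; edgeR adjusted p = 0.00398). The call against saline was lost without any one of needling replicates 1 and 2 and saline replicates 1, 2 and 3 (adjusted p between 0.0689 and 0.160). Total-count scaling gave -0.19 (edgeR adjusted p = 0.247) against saline and -0.20 (0.166) against naive. The summed fibre markers given above were lower in needling libraries too, and 3 of those 8 genes fell against saline; their part in the Psme4 difference was not tested.

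**Figure D3:**
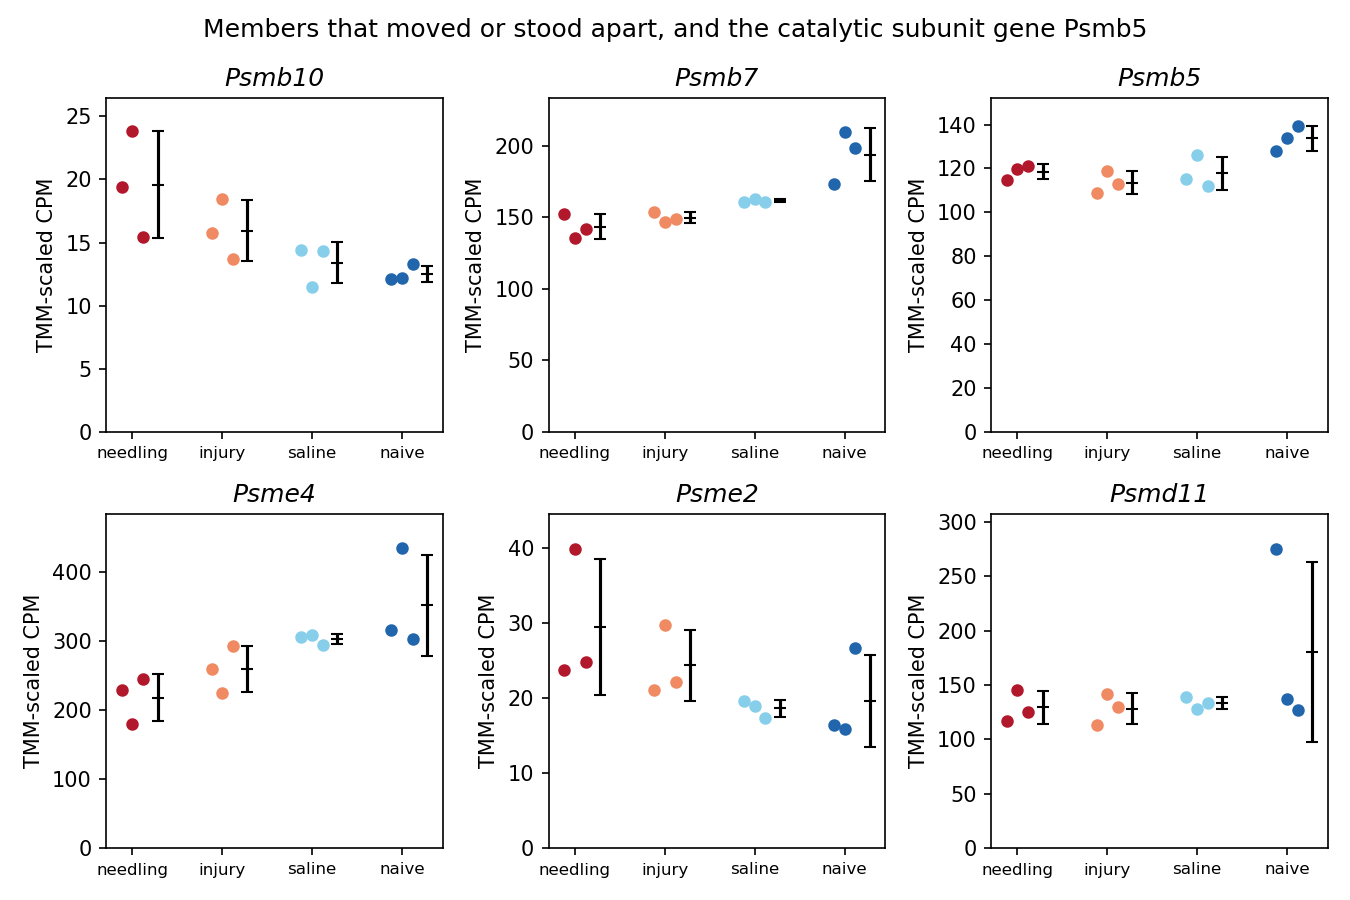
CPM (TMM-scaled, linear axes from 0) of 6 genes in each library of needling, injury, saline and naive muscle, with the mean and SD of 3 libraries beside the points. Psmb10 is highest and Psme4 lowest in needling muscle, Psmb7 and Psmb5 are highest in naive muscle, and Psmd11 is set apart by naive replicate 1.

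The remaining activators did not pass the 12-library edgeR test with TMM scaling. Psme2 encodes the beta subunit of PA28, the interferon-inducible activator known for its role in antigen presentation. It was at 23.7, 39.8 and 24.8 CPM in needling muscle, 21.1, 29.7 and 22.1 CPM in injury muscle, 19.6, 18.9 and 17.3 CPM in saline muscle, and 16.4, 15.8 and 26.7 CPM in naive muscle. Needling libraries lay above saline ones, but naive replicate 3 was within the needling range. The difference in needling against saline was 0.67 ± 0.24 (SE, edgeR adjusted p = 0.0515; interval 0.15 to 1.18), and it was 0.38 without needling replicate 2. It lay close to the threshold: of 16 alternatives 8 passed, all higher (adjusted p between 0.0217 and 0.243 over the 16), among them DESeq2 (0.68, adjusted p = 0.0287).

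Psme2b is a near copy on another chromosome whose transcript was 99.4% identical to that of Psme2 over 794 aligned bases, so reads of both genes may have been split between them. Their summed level was 35.0, 55.9 and 35.2 CPM in needling muscle, 32.1, 43.3 and 31.4 CPM in injury muscle, 28.6, 28.6 and 28.5 CPM in saline muscle, and 27.9, 26.2 and 39.6 CPM in naive muscle. In the sum too, needling libraries were above saline ones and naive replicate 3 was inside the needling range.

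Psme1, the alpha subunit of PA28, was at 32.7, 40.4 and 38.0 CPM in needling muscle, 36.1, 33.8 and 35.0 CPM in injury muscle, 29.6, 38.3 and 33.0 CPM in saline muscle, and 32.9, 40.1 and 36.2 CPM in naive muscle. Psme3, which encodes the nuclear PA28 gamma, was at 64.0, 77.5 and 60.9 CPM in needling muscle, 58.9, 72.0 and 62.6 CPM in injury muscle, 66.8, 67.7 and 64.3 CPM in saline muscle, and 72.1, 75.2 and 88.9 CPM in naive muscle. Psmf1, the inhibitor PI31, was at 17.1, 15.4 and 18.7 CPM in needling muscle, 16.0, 19.0 and 18.0 CPM in injury muscle, 14.1, 18.4 and 21.1 CPM in saline muscle, and 15.6, 18.0 and 19.8 CPM in naive muscle. The needling and saline libraries of all 3 genes overlapped. Their differences were 0.14 ± 0.12, 0.03 ± 0.12 and -0.07 ± 0.15 (SE; edgeR adjusted p = 0.391, 0.886 and 0.763), with intervals inside 1.5-fold either way.

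The 7 assembly factors, Psmg1 to Psmg4 for the core and Psmd5, Psmd9 and Psmd10 for the cap, had a median difference of 0.22 in needling against saline, and none passed the 12-library edgeR test with TMM scaling. The highest was Psmg3 at 0.63 ± 0.25 (SE, edgeR adjusted p = 0.0785). It was at 3.88, 6.81 and 4.61 CPM in needling muscle, 3.69, 4.51 and 3.37 CPM in injury muscle, 2.50, 4.38 and 3.01 CPM in saline muscle, and 3.56, 3.89 and 3.06 CPM in naive muscle, so that groups overlapped. It passed without needling replicate 1 (0.79, edgeR adjusted p = 0.0484) and without saline replicate 2 (0.89, 0.0416). Psmg4, named after its values were seen, was at 7.54, 11.1 and 7.54 CPM in needling muscle, 6.31, 8.28 and 6.26 CPM in injury muscle, 5.004, 6.46 and 6.62 CPM in saline muscle, and 5.94, 6.24 and 8.57 CPM in naive muscle. Its needling libraries lay above the saline ones and overlapped the others, with a difference against saline of 0.54 ± 0.21 (SE, adjusted p = 0.0717 by edgeR). With total-count scaling Psmg3 and Psmg4 both passed as higher (0.95 and 0.85; edgeR adjusted p = 0.0226 and 0.0266). The lowest was Psmg2 at -0.17 ± 0.09 (SE, adjusted p = 0.178 by edgeR). Pomp, which also assembles the core, was at 93.4, 104 and 95.4 CPM in needling muscle, 89.5, 95.9 and 88.0 CPM in injury muscle, 85.4, 95.9 and 88.1 CPM in saline muscle, and 99.95, 102 and 92.4 CPM in naive muscle. Its needling and saline libraries overlapped, with a difference of 0.12 ± 0.09 (SE, edgeR adjusted p = 0.345).

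**Figure D4:**
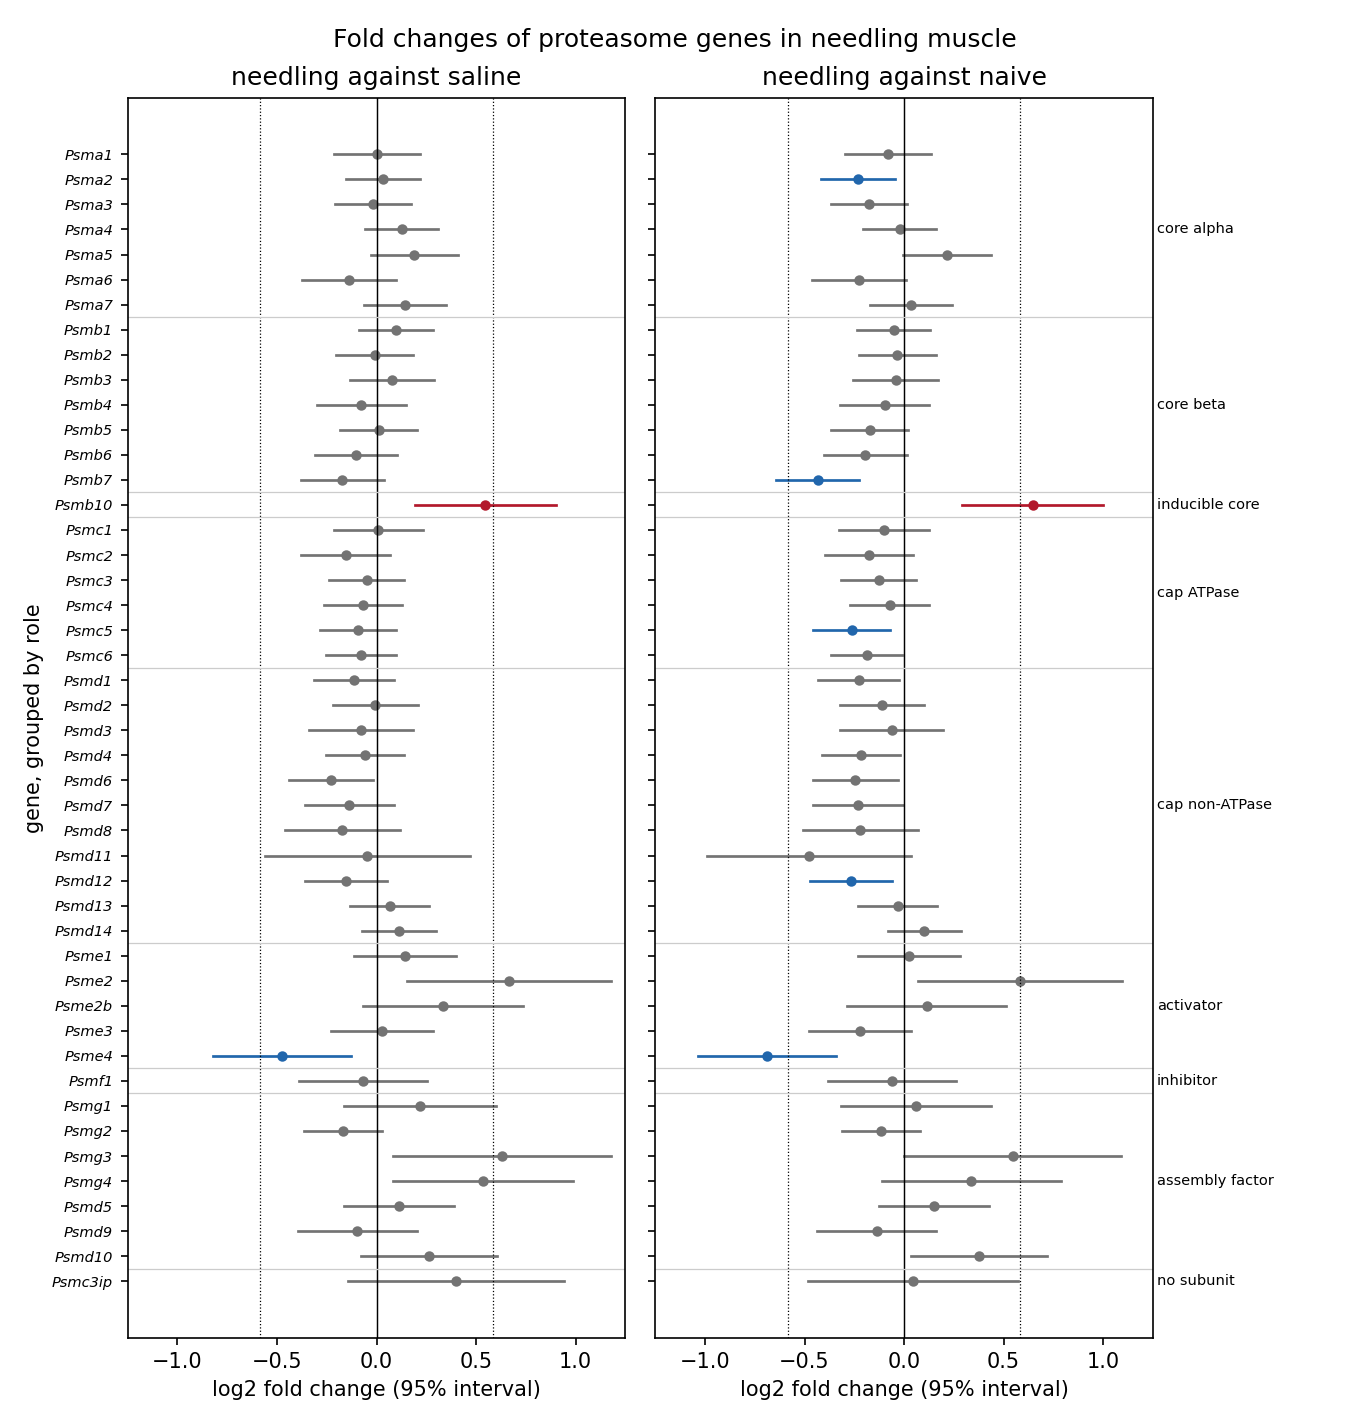
Log2 differences with 95% intervals for the 46 tested genes, needling against saline on the left and needling against naive on the right, with dotted lines at 1.5-fold. Red points passed as higher and blue as lower; Psmb10 and Psme4 passed in both panels, and most core and cap points on the right lie left of 0 under the TMM scaling used here.

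No proteasome gene passed in injury against saline, where 4.26% of all genes passed. None of the 46 had an unadjusted p under 0.05 there, beside 2473 of the 15715 genes. DESeq2 called none of the 46, beside 3.46% of 29959 genes, a set that includes genes below the filter on low counts. The 31 core and cap genes lay between -0.14 (Psmd6) and 0.10 (Psma7), each with an interval within 1.5-fold, against 73.7% of tested genes of at least 10 CPM. Psmb10 differed by 0.25 ± 0.16 (SE, edgeR adjusted p = 0.501; interval -0.10 to 0.61) and Psme4 by -0.22 ± 0.16 (0.542; -0.57 to 0.12). The test thus leaves room for changes of these 2 genes as large as those seen with needling.

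Needling against injury asks what acupuncture adds to the same injury. In the 12-library edgeR test 0% of all genes passed, and 2606 of all genes and none of the 46 had an unadjusted p under 0.05. DESeq2 called 1.89% of 29959 genes and none of the 46. The differences ran between -0.25 (Psme4) and 0.41 (Psmg3), and the 31 core and cap genes stayed between -0.09 (Psmd3) and 0.14 (Psma4), each with an interval within 1.5-fold, against 69.9% of tested genes of at least 10 CPM. Same-numbered needling and injury libraries deviated together from their group means. With the replicate number as a block and these 6 libraries alone, Psme4 passed at -0.28 ± 0.08 (SE, adjusted p = 0.0356 by edgeR), as did 19.6% of all genes (7.16% of all genes as lower); that fit has 2 residual degrees of freedom. With the same block inside the 12-library fit none of the 46 passed, beside 2.37% of all genes.

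Against naive muscle the core and cap genes were slightly lower in the 3 injected groups with TMM scaling, and higher with total-count scaling. The summed level of the 31 genes was 4055, 4218 and 4173 CPM in needling muscle, 3953, 4389 and 4263 CPM in injury muscle, 4309, 4349 and 4279 CPM in saline muscle, and 4807, 4608 and 4547 CPM in naive muscle. The naive libraries were above the other 9. This order rests on the scaling. As CPM of the library total, without TMM, the same sums were 4715, 5387 and 4530 in needling muscle, 4158, 4990 and 4291 in injury muscle, 4100, 4128 and 4128 in saline muscle, and 3956, 3599 and 4145 in naive muscle, with needling libraries above naive ones.

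In saline against naive, 0% of all genes and none of the 46 passed the 12-library edgeR test. There, 1865 of all genes and 2 of the 46 had an unadjusted p under 0.05. DESeq2 called 0.507% of 29959 genes and none of the 46. The estimate was lower for 29 of the 31 core and cap genes, with a median of -0.11, while the median of all genes was 0.02. With total-count scaling 28 of the 31 were higher. The comparison of needling with naive shares the naive libraries, and there 28 of 31 estimates were lower with a median of -0.17, against -0.03 for all genes; all 31 were higher with total-count scaling, at a median of 0.31 against 0.46 for all genes, and 21 of them passed as higher, beside 46.9% of all genes. The interval lay within 1.5-fold for 29 of the 31 in needling against naive, 30 in injury against naive and 30 in saline against naive, beside 42.2%, 58.1% and 74.7% of tested genes of at least 10 CPM.

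Psmb7 (chr2:38588036-38644087, minus strand) encodes the constitutive trypsin-like subunit. It was at 153, 136 and 142 CPM in needling muscle, 154, 147 and 149 CPM in injury muscle, 161, 163 and 161 CPM in saline muscle, and 174, 210 and 198 CPM in naive muscle. Naive libraries were above all others, and saline ones above needling and injury ones. It fell in needling against naive by 0.43 ± 0.10 on the log2 scale (SE; edgeR adjusted p = 0.00319), where 42.2% of all genes passed. In injury against naive, with 17.8% of genes called, it was the 1 proteasome gene that passed, beside 5.54% of all genes called lower (-0.37 ± 0.10, SE; edgeR adjusted p = 0.0196), and that call was lost without injury replicate 2 or 3 or naive replicate 2 or 3 (adjusted p between 0.0682 and 0.128). DESeq2 called 3 of the 46 there, beside 11.0% of 29959 genes. With total-count scaling 4 passed, all higher, beside 26.7% of the 15715 genes called higher. With total-count scaling the needling difference was 0.05 (edgeR adjusted p = 0.710). Of the 3421 exonic bases of Psmb7, 405 are shared with Nek6 on the opposite strand. Whether counting used strand was not given in the sources used here, and Nek6 averaged 33.7 ± 4.65 CPM in needling muscle and 37.1 ± 9.11 CPM in naive muscle (SD, n = 3 each).

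In needling against naive 6 of the 46 genes passed, 1 higher (Psmb10), beside 23.2% of all genes, and 5 lower, beside 19.0%. DESeq2 called 10, beside 22.2% of 29959 genes (6652 genes), a set that includes genes below the filter on low counts. Besides Psmb7 and Psme4, the lower ones were Psmc5, an ATPase, at 0.834 of the naive level (-0.26 ± 0.09, SE; edgeR adjusted p = 0.0308), Psmd12, a scaffold subunit of the cap, at 0.831 (-0.27 ± 0.09; 0.0371), and Psma2, an alpha subunit, at 0.852 (-0.23 ± 0.09; 0.0447).

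Psmc5 was at 144, 146 and 141 CPM in needling muscle, 148, 155 and 149 CPM in injury muscle, 158, 151 and 150.1 CPM in saline muscle, and 168, 186 and 162 CPM in naive muscle. Psmd12 was at 113, 112 and 123 CPM in needling muscle, 117, 114 and 131 CPM in injury muscle, 132, 128 and 126 CPM in saline muscle, and 147, 141 and 129 CPM in naive muscle. Psma2 was at 83.0, 90.1 and 81.7 CPM in needling muscle, 84.0, 91.1 and 82.6 CPM in injury muscle, 79.9, 86.8 and 82.3 CPM in saline muscle, and 99.2, 101 and 98.6 CPM in naive muscle. In all 3 genes the needling libraries were below the naive ones, and in Psma2 those of every injected group were. Each of the 3 calls was lost without needling replicate 1, naive replicate 1 or naive replicate 2, those of Psmc5 and Psmd12 also without needling replicate 2, those of Psmc5 and Psma2 without needling replicate 3, and that of Psma2 without naive replicate 3. With total-count scaling the estimates were 0.23, 0.22 and 0.26.

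The lower estimates of Psmd11 against naive muscle rested on naive replicate 1. It was at 117, 146 and 125 CPM in needling muscle, 113, 142 and 129 CPM in injury muscle, 139, 128 and 134 CPM in saline muscle, and 275, 137 and 127 CPM in naive muscle. Naive replicate 1 was thus 2.08 times the mean of the other two naive libraries, which lay among the rest. In needling against naive the difference was -0.48 (edgeR adjusted p = 0.125), and -0.02 (0.938) without that library. Psmd8 and Psmd5 were also high there, at 1.33 and 1.40 times the other naive libraries, while the other 43 tested genes lay between 0.771 and 1.13 times. Without naive replicate 1, Psmd5, a chaperone of cap assembly, was 0.35 higher in needling against naive (edgeR adjusted p = 0.0196), against 0.15 (0.374) with it. Psmd11, Psmd8 and Psmd5 were singled out after their values were seen.

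The ratio of Psmb10 to Psmb7 sets the inducible subunit against the one it replaces, and any scaling of a whole library cancels in it. The Psmb10 FPKM was 25.5%, 35.4% and 21.8% of that of Psmb7 in needling muscle, 20.5%, 25.3% and 18.4% in injury muscle, 17.9%, 14.2% and 17.9% in saline muscle, and 14.0%, 11.6% and 13.4% in naive muscle. The groups followed each other without overlap apart from needling and injury, which overlapped. The difference in the log2 ratio, with 0.1 added to each FPKM, was 0.70 in needling against saline, 0.35 in injury against saline, 0.34 in needling against injury, 0.35 in saline against naive, 0.70 in injury against naive and 1.05 in needling against naive. The two-sided exact permutation p was 0.10 in 5 of the 6 comparisons, the smallest that 3 against 3 allows, and 0.20 in needling against injury; adjusted over the 6 they were 0.12 and 0.20, so none could pass. Without needling replicate 2 the difference against saline was 0.50, and the comparisons share libraries.

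**Figure D5:**
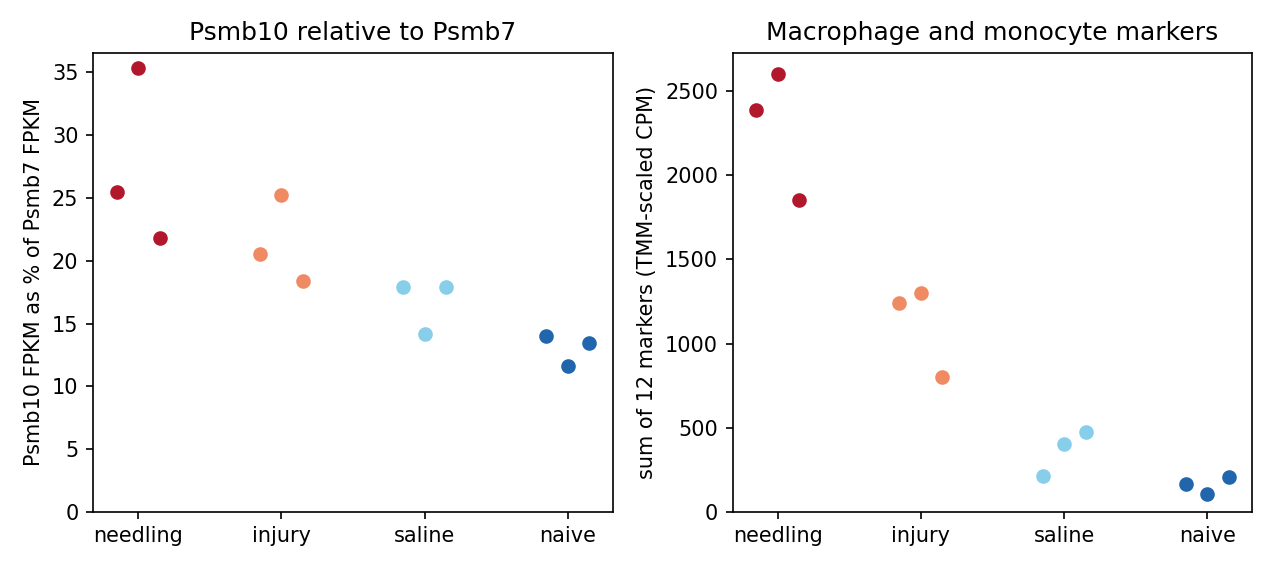
Psmb10 FPKM as a percentage of Psmb7 FPKM (left) and summed CPM of 12 macrophage and monocyte markers (right) in each library, linear axes from 0, in needling, injury, saline and naive muscle. The ratio lies between 21.8% and 35.4% in needling muscle and between 11.6% and 14.0% in naive muscle, and the marker sum is also highest in needling muscle. Summed markers of lymphocytes, neutrophils, fibroblasts, cell division, and satellite cells and myoblasts, not drawn, were highest on average there too.

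Partners of the proteasome that carry other names were read from a list of 28 genes, of which 27 matched the annotation and were tested. In needling against saline 1 rose and 6 fell, beside 29.6% of all genes called. Those that fell included Ubqln4, whose product ferries ubiquitinated proteins to the cap (-0.40 ± 0.11, SE; edgeR adjusted p = 0.0164), Ecpas, a proteasome-binding adaptor (-0.51 ± 0.16; 0.0267), and Zfand5, a stimulator of degradation in wasting muscle (-0.45 ± 0.13; 0.0205). Ngly1, the enzyme that removes sugars from the Nfe2l1 protein, and Ufd1, a cofactor of the unfoldase Vcp, fell by 0.40 and 0.30 (edgeR adjusted p = 0.0378 and 0.0283). These falls are relative to the bulk of genes: with total-count scaling 6 of the 27 passed as higher and none as lower, and Ubqln4 was at -0.10 (edgeR adjusted p = 0.458). Without needling replicate 2 or without saline replicate 1, 1 gene fell, and the shares of all genes called in those fits are not given.

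The gene that rose was Rps27a, which encodes ubiquitin fused to a ribosomal protein, at 185, 229 and 85.3 CPM in needling muscle, 83.9, 75.1 and 65.0 CPM in injury muscle, 55.6, 65.7 and 62.9 CPM in saline muscle, and 73.8, 78.9 and 57.6 CPM in naive muscle. Needling libraries were above all others, needling replicate 3 by a small margin, and the difference against saline was 1.44 ± 0.28 (SE; edgeR adjusted p = 0.00347). Ribosomal protein genes have many processed copies, so part of its reads may have been counted elsewhere.

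In needling against naive 2 of the 27 rose and 8 fell, beside 42.2% of all genes. The falls included the ubiquitin gene Ubb (-0.62 ± 0.22, SE; edgeR adjusted p = 0.0384), which was high in naive replicate 1 and did not pass without that library (-0.21, edgeR adjusted p = 0.273). In injury against naive 3 fell, Ecpas and Ubqln4 among them, beside 17.8% of all genes. In injury against saline, needling against injury and saline against naive none of the 27 passed the 12-library edgeR test. In needling against injury, the replicate block called 2 as lower with the 2 groups alone, beside 19.6% of all genes, and 1 as higher within the 12-library fit, beside 2.37%. DESeq2 called 1 higher and 1 lower there, beside 1.89% of 29959 genes, and without needling replicate 3 edgeR called 1 higher.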

How the data were processed

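Muscle RNA (Trizol) was sequenced from NEBNext Ultra libraries, per the labels' protocols. Reads were aligned with HISAT2 2.0.5 to mm10, per the submitters' processing notes; how reads were counted, on which annotation and with what strand setting is not given in the sources used here. A count table deposited by the authors holds whole-number read counts per gene. The deposited FPKM table holds FPKM values by the authors, whose scale per library matched size factors of the median-ratio kind, computed over 10500 genes, and not library totals, so FPKM does not undo the choice of scaling.

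Counts were tested with edgeR 4.0.16 in R 4.3.3: TMM scaling, filterByExpr by group, robust quasi-likelihood fit of all 12 libraries, Benjamini-Hochberg adjustment over 15715 genes, two-sided. Standard errors are the log2 difference over the root of F, and intervals are 95%. Exonic overlaps were computed on GENCODE M21. FPKM served comparisons of levels between genes and the Psmb10 to Psmb7 ratio. The steps were tested on simulated counts.

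Values in every library are given for up to 4 called members per comparison and direction, for Psmb5, Psmb6, Psmb7, Psmb10, Psme1 to Psme4, Psmf1, Psmd4, Psmd14 and Pomp, and per role the highest and lowest difference is named; other genes were named after their values were seen. Some partner genes are not reported here by name. The members and lists were chosen with earlier results of these data known. Alternatives were median-ratio size factors, no filter and a stricter filter, the 2 groups alone, replicate blocks, DESeq2 1.42.0, limma 3.58.1 on log2(FPKM + 1) and log2(FPKM + 0.1), and leaving out each library; total-count scaling was added after seeing the data. Deviations from group means correlated at 0.238, 0.485 and 0.422 between same-numbered needling and injury libraries, over the 0.1 asked of every pair, which no other 2 groups reached; the labels give no origin for this pairing.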

Additional observations from a re-analysis of the deposited data

How the results depend on the processing

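The choice of scaling outweighed the other settings. In needling against saline, injury against naive and needling against naive, 2, 1 and 6 of the 46 genes passed with TMM. The shares of all genes called there were 29.6%, 17.8% and 42.2%. With total-count scaling, added after seeing the data, 14, 4 and 30 passed, all of them higher. Of all genes, 29.6%, 26.7% and 46.9% were called higher with it. In needling against naive it turned 4 called falls round, giving 0.052 for Psmb7, 0.26 for Psma2, 0.23 for Psmc5 and 0.22 for Psmd12 (edgeR adjusted p = 0.710, 0.0816, 0.0753 and 0.0481). The shares of counts that members took were 0.511% to 0.605% in needling, 0.471% to 0.56% in injury, 0.464% to 0.469% in saline and 0.416% to 0.47% in naive libraries. Which scaling is nearer to RNA per cell was not tested.

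In needling against saline the replicate block with the 2 groups alone gave 4 calls, Psme2, Psmg3 and Psmg4 higher (edgeR adjusted p = 0.0217, 0.0247 and 0.0414) and Psme4 lower. In needling against injury it gave 1, beside 19.6% of all genes. Shares of all genes called are not given for the other blocked, unfiltered, 2-group and left-out fits of this paragraph. Their counts show only how the calls shifted with the setting. In injury against naive, 0 passed when no filter was used, when the 2 groups were fitted alone, or alone with the replicate block, and 3 with DESeq2. In needling against naive these gave 3, 3, 1 and 10. Leaving out 1 library gave 0 to 3 calls in needling against saline, 0 to 1 in injury against naive, 3 to 8 in needling against naive, and 0 in the other 3 comparisons. In needling against saline it was 0 without needling replicate 2 and 1 without saline replicate 1, 2 or 3; in injury against naive it was 0 without injury or naive replicate 2 or 3; in needling against naive it was 3 without naive replicate 2. The cause was not tested. In the other pairs of groups same-numbered libraries did not all deviate together (0.216, 0.176 and 0.0413 for needling and saline), and the replicate block over 12 libraries gave 3 (Psmb10, Psmg3 and Psmg4, all higher), 1 and 7 calls in needling against saline, injury against naive and needling against naive, and 0 elsewhere.

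Psmb10 passed in needling against saline in 12 of 16 alternatives (0.38 to 0.86) and in needling against naive in 16 of 16 (0.48 to 1.15). Psme4 passed in 9 and 14 of 16, in each as a fall. Over 40 gene and comparison pairs, 644 values under alternatives kept their side of the threshold in 555 cases, with 46 weaker, 19 past the threshold where the main test was not, 20 uncalled estimates of the other sign, and the 4 turned round. The difference between groups in the log2 ratio of Psmb10 to Psmb7 stayed positive in all 6 comparisons and their alternatives. With left-out libraries it was 0.50 to 0.85 in needling against saline, 0.23 to 0.45 in injury against saline, 0.15 to 0.50 in needling against injury, 0.27 to 0.46 in saline against naive, 0.58 to 0.80 in injury against naive and 0.85 to 1.20 in needling against naive. With 3 libraries a group, the median standard error of the 46 genes in needling against saline was 0.10.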
